A study of Mus musculus with 10 samples.

Results

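The semaphorin, plexin, slit and netrin genes encode the guidance cues that steer axons, blood vessels and migrating cells, together with the receptors that read them. Their transcripts were measured in the secondary palate of the mouse at E14.5, the stage at which the palatal shelves fuse. Members were taken by symbol from the platform annotation: every gene whose single symbol begins with Sema, Plxn, Slit, Robo, Ntn or Unc5 followed by a number or letter, plus Nrp1 and Nrp2, without Robo4 and without the Slitrk genes. This gave 50 of the 18194 genes on the array. Of these, 47 belong to the families: 20 semaphorins, 2 neuropilins, 9 plexins, 3 slits, 3 robos, 6 netrins and 4 Unc5 receptors. The other 3 met the rule by name only, namely Unc50, Unc5cl and the antisense RNA gene Plxna4os1. All 50 were tested, with no filter on low values.

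The mutant group held 5 arrays of genotype Tgfbr2fl/fl;Wnt1-Cre, in which Cre recombinase driven by Wnt1 sequences removes the floxed type II TGF-beta receptor in the neural crest. The control group held 5 arrays of genotype Tgfbr2fl/fl, which carry the same floxed alleles without Cre and are called wildtype in their titles. Both groups are labelled strain C57B6, and the sex of the embryos is labelled as not determined. The Y-linked gene Eif2s3y was high on more mutant than control arrays, so the sexes may not be balanced between the groups. The comparison asks which genes depend on TGF-beta reception in the neural crest, and palate cells of other origin keep the receptor gene in this model.

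Class 3 semaphorins are secreted and bind neuropilins, which pass the signal on through plexins, while most membrane-bound semaphorins bind plexins directly. Slits are secreted repellents read by Robo receptors. Netrins attract through Dcc and repel through Unc5 receptors. In the developing head these systems are known for guiding cranial nerves, neural crest streams and vessels, and neuropilin 1 is also a receptor for VEGF-A.

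The deposited values are log2 expression values rounded to steps of 0.1, so a difference of 1 equals a doubling of signal. Each gene was read from the brightest of its probe sets (mean of the 10 arrays), and levels of different genes are not compared, since probe sets differ in brightness. A gene was called when its limma p-value, adjusted by Benjamini-Hochberg over all 18194 genes, was under 0.05. Array medians were 6.4 or 6.5. Nothing in the labels ties each array to its own embryo, so the p-values cover the spread between these arrays, part of which may be technical, and the number of arrays limits the precision. Control replicate 1 stood apart: its correlation with the other arrays over all genes was 0.985 to 0.989, and it alone was lowest for 17 and highest for 7 of the 50 genes. That is 48% of the guidance genes, against 36.7% of all genes for the same array, and the other arrays were alone at an end for 4% to 22% of the 50. Values without this array therefore stand beside many of the genes it moves, and those of the others accompany the fit that leaves it out. The targeted gene, Tgfbr2, averaged 10.74 ± 0.05 in mutants and 10.66 ± 0.11 in controls (SD, n = 5 each; adjusted p = 0.482), which does not check the deletion, since the place of its probe sets relative to the loxP sites is unknown here.

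Of the 50 guidance genes, 4 were higher and 2 were lower in mutant palate, and 44 were not called. The increases were those of the secreted ligand Sema3d, the membrane-bound ligand Sema5b, the receptor Nrp1 and the netrin receptor Unc5d. The decreases were those of the membrane-bound ligand Sema4f and the receptor Plxna2. None of the 6 reached a 1.5-fold change: Sema3d was 1.36-fold higher, and the others differed 1.21-fold to 1.34-fold. The called share was 12% of the 50 genes, or 12.8% of the 47 family genes, against 8.26% of all genes tested. Increases made up 4 of the 50, where 2.9% of all genes were called higher, and decreases 2 of the 50, where 5.36% were called lower. At these counts the called share of the guidance genes lay near that of the whole array.

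The small differences leaned upward. The log2 fold change was positive for 31 of the 50 genes (62%), negative for 18 and 0 for Slit1, while 46.2% of all genes had a positive value. The median was 0.08 for the guidance genes and 0.00 for all genes. Without control replicate 1 the value was positive for 33 of the 50 (66%), against 49.3% of all genes, with medians of 0.06 and 0.00. By role, 13 of 18 receptors had a positive value, with a median of 0.16, and 16 of 29 ligands, with a median of 0.04. These values by role include control replicate 1. Without it Plxna4, Plxnb3, Plxnc1, Unc5a, Robo1 and Robo3 had higher values, and all other receptors had lower ones. Plxna3, for example, went from 0.22 to 0.115 and Plxnd1 from 0.18 to 0.085. The gap between receptors and ligands may thus rest in part on that array. Of the 44 genes not called, 4 had a 95% confidence interval reaching a 1.5-fold change, namely Robo2, Ntn3, Nrp2 and Sema6d. In whole tissue, fewer cells of a type and less RNA per cell cannot be told apart.

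**Figure D1:**
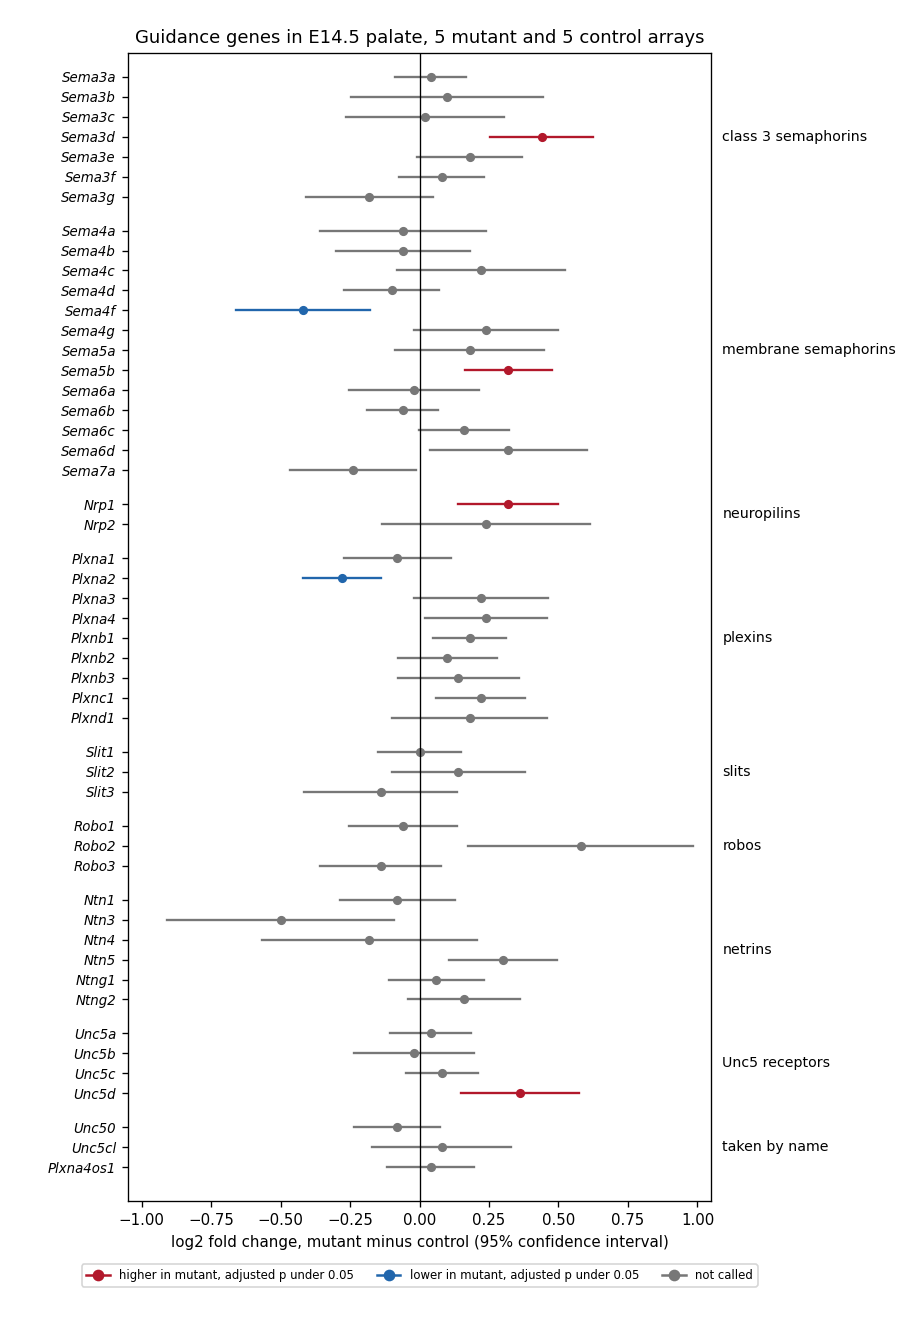
Log2 fold changes, mutant minus control, of the 50 guidance genes by family, with 95% confidence intervals from limma (5 arrays per group). Coloured points are the 6 genes called at an adjusted p under 0.05; the largest value, 0.58 for Robo2, has a wide interval and was not called.

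The promoters of the called genes are shown to give the sequences upstream of the transcripts that differed. They come from a RefSeq table on GRCm38.p6 that holds 250 bases before and 50 after each start, 5′ to 3′ on the strand of the gene, and 5 of the 6 called genes are in it. Capitals mark CAGAC on either strand (GTCTG on the other), the letters of the box that SMAD3 and SMAD4, the transcription factors downstream of TGF-beta receptors, are known to bind. This motif has few letters: 49.6% of all promoters of this length in the table hold it, and 30 of the 54 promoters of the guidance genes (55.6%) do, so its presence is a description only.
Sema3d, chr5:12382916-12383215, plus strand: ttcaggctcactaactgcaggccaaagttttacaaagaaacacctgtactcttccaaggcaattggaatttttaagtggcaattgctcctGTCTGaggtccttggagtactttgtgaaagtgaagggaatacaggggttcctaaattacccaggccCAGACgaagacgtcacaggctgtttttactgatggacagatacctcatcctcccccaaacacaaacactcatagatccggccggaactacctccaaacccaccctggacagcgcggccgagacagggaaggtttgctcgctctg
Sema5b, chr16:35541112-35541411, plus strand: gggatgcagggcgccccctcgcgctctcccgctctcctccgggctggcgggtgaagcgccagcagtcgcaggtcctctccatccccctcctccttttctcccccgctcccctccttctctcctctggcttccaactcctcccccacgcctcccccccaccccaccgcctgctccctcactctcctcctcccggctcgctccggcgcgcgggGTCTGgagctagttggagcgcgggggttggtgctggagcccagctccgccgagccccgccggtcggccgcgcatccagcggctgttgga
Nrp1, chr8:128358823-128359122, plus strand: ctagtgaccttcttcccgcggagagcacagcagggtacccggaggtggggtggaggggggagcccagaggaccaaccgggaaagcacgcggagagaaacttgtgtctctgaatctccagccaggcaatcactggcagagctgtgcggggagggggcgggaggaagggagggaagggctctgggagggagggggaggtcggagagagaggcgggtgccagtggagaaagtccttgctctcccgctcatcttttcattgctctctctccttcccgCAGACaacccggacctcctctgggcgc
Sema4f, chr6:82939720-82940019, minus strand: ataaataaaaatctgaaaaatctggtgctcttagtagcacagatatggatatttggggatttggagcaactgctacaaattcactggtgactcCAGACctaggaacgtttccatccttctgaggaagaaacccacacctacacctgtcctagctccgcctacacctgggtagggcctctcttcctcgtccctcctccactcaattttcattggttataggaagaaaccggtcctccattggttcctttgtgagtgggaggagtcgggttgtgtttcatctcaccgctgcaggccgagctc
Plxna2, chr1:194619579-194619878, plus strand: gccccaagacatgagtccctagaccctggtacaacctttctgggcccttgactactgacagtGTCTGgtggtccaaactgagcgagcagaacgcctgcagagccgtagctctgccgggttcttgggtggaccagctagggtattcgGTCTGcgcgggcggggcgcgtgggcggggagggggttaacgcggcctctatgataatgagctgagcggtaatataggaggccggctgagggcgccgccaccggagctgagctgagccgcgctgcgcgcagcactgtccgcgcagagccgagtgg
The windows of Sema3d and Plxna2 hold the motif at 2 places each, and those of Sema5b, Nrp1 and Sema4f at 1 place each. Genes that rose and genes that fell both carry it. The share of G and C was 73% for Sema5b, 64.7% for Plxna2, 64% for Nrp1, 49.7% for Sema3d and 48.7% for Sema4f, against a median of 63.8% over the promoters of the guidance genes and 52.7% over the whole table.

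Among the 7 class 3 semaphorins, the secreted ligands, only Sema3d was called. Sema3d, which acts through neuropilins and patterns veins in the mouse, was at 10.8, 10.6, 10.9, 10.8 and 10.9 in mutant replicates 1 to 5, against 10.6, 10.2, 10.3, 10.3 and 10.4 in control replicates 1 to 5. Mutant replicate 2 and control replicate 1 shared the value 10.6, and every other mutant array lay above every control. The means were 10.80 ± 0.12 in mutants and 10.36 ± 0.15 in controls (SD, n = 5 each), a log2 fold change of 0.44 (SE 0.08, adjusted p = 0.0118). Without control replicate 1 the log2 fold change was 0.50 and the 2 groups no longer shared a value. A second Sema3d probe set was 0.24 higher in mutants and was not called (adjusted p over all 45101 probe sets = 0.191). There too control replicate 1 was the highest control, at 9.0, and the value without it was 0.33.

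Sema3e, a ligand that binds plexin D1 without a neuropilin and keeps vessels out of tissue, was not called on the probe set used. Its log2 fold change was 0.18 (95% confidence interval -0.01 to 0.37, adjusted p = 0.226). Another of its 4 probe sets, of nearly the same brightness, separated the groups, with 8.4, 8.2, 8.3, 8.2 and 8.4 in mutant arrays and 7.9, 7.7, 8.1, 8.0 and 7.8 in control arrays. That probe set was 0.40 higher and was called over all probe sets (adjusted p = 0.0305), as 3.25% of them were. All 4 Sema3e probe sets were positive, from 0.08 to 0.40. Sema3e was singled out after its values were seen.

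The other 5 class 3 ligands were not called. Sema3a, the classic repellent of sensory axons, was at 9.78 ± 0.04 in mutants and 9.74 ± 0.09 in controls, with a log2 fold change of 0.04 with an interval of -0.09 to 0.17, and its other 2 probe sets were at -0.16 and -0.14. Sema3f, the main ligand of neuropilin 2, gave 0.08 (-0.07 to 0.23) and Sema3c, which guides cardiac neural crest, gave 0.02 (-0.27 to 0.31). Sema3b gave 0.10 (-0.25 to 0.45), which was -0.04 without control replicate 1, and Sema3g gave -0.18 (-0.41 to 0.05). Except for that of Sema3b, these intervals leave out an increase of the size seen for Sema3d. Sema3d, Sema3a, Sema3e and Sema3c lie in this order on chromosome 5, with 0, 3 and 15 coding genes between neighbours, and Sema3b and Sema3f lie on chromosome 9 with 3 between them. The immediate neighbours Sema3d and Sema3a thus had log2 fold changes of 0.44 and 0.04.

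**Figure D2:**
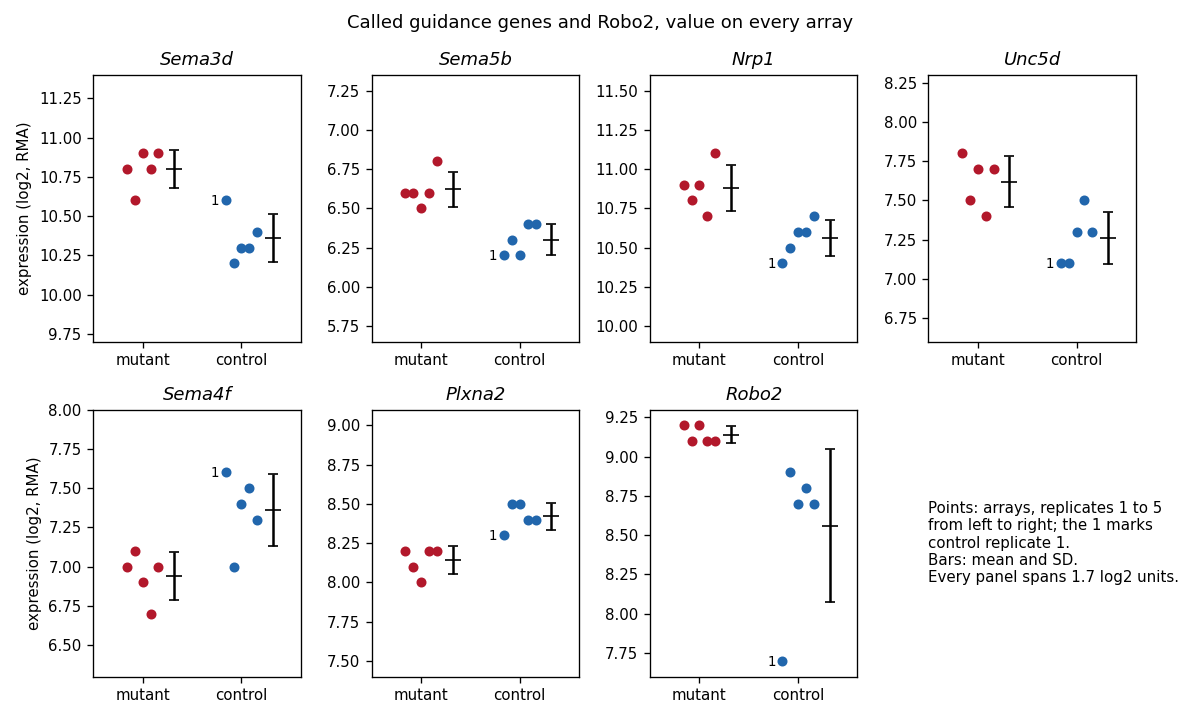
Log2 expression on every array of the 6 called genes and of Robo2, with mutant arrays left of control arrays and the mean and SD beside them (5 arrays per group). Sema5b, Plxna2 and Robo2 show no overlap between groups, and control replicate 1, marked 1, lies at 7.7 for Robo2, against 8.7 to 8.9 in the other controls.

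Of the 13 membrane-bound semaphorins, 1 rose and 1 fell. Sema5b, which with Sema5a repels neurites in the mouse retina, was at 6.6, 6.6, 6.5, 6.6 and 6.8 in mutant arrays, against 6.2, 6.3, 6.2, 6.4 and 6.4 in control arrays. The groups did not overlap, as was the case for 3 of the 50 guidance genes (6%), Sema5b, Robo2 and Plxna2, and for 6.75% of all genes. Mutants lay above all controls for 2 of the 50, against 1.82% of all genes, and below them for 1, against 4.93%. The log2 fold change was 0.32 (SE 0.07, adjusted p = 0.0206), with 6.62 ± 0.11 in mutants and 6.30 ± 0.10 in controls (SD, n = 5 each). The other Sema5b probe set was 0.28 higher and was not called (adjusted p = 0.163). Without control replicate 3 the adjusted p of Sema5b was 0.0543.

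Sema4f, a class 4 transmembrane semaphorin, was at 7.0, 7.1, 6.9, 6.7 and 7.0 in mutant arrays, against 7.6, 7.0, 7.4, 7.5 and 7.3 in control arrays. Control replicate 2 lay among the mutants, and the other 4 controls lay above all mutants. Its log2 fold change was -0.42 (SE 0.11, adjusted p = 0.0386), while its second probe set gave -0.06. This call was the least stable of the 6 when single arrays were left out: it was lost without 9 of the 10 in turn, and held only without control replicate 2 (-0.51, adjusted p = 0.00923).

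Sema5a, the partner of Sema5b, was at 10.4, 11, 10.6, 10.6 and 10.8 in mutant arrays, against 10.7, 10.7, 10.4, 10.5 and 10.2 in control arrays. Its groups overlapped, and the log2 fold change was 0.18 (-0.09 to 0.45). Sema6d, which binds plexin A1 and acts in heart morphogenesis in the chick, had 0.32 (0.04 to 0.60, adjusted p = 0.152). Control replicate 1 was at 9.4 for Sema6d and the other 4 controls were all at 10.1, so without it the value was 0.18. Sema4c, a ligand of plexin B2, showed the same array apart, with 7.6 there and 8.2 to 8.4 in the other controls, and its log2 fold change was 0.22 with it and 0.07 without it. Sema4a and Sema4b stood out the other way, at 7.8 and 8.7 in control replicate 1, against at most 7.2 and 8.1 in the other controls. For both the log2 fold change was -0.06, and without that array it was 0.08 for Sema4a and 0.06 for Sema4b.

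Sema7a, which is anchored by a lipid and binds plexin C1 and an integrin, gave -0.24 (-0.47 to -0.01, adjusted p = 0.176). Without control replicate 1 it was called, at -0.32 (adjusted p = 0.0396). Sema4g and Sema6c were at 0.24 and 0.16, and Sema4d, the ligand of plexin B1, was at -0.10. Sema6a and Sema6b were at -0.02 and -0.06, and none of these 5 was called.

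The neuropilins, the ligand-binding co-receptors of class 3 semaphorins, both had positive log2 fold changes, and Nrp1 was called. Nrp1 was at 10.9, 10.8, 10.9, 10.7 and 11.1 in mutant arrays, against 10.4, 10.5, 10.6, 10.6 and 10.7 in control arrays. Only mutant replicate 4 and control replicate 5 met, at 10.7. The log2 fold change was 0.32 (SE 0.08, adjusted p = 0.0362), and leaving out 8 of the 10 arrays in turn raised the adjusted p to between 0.0503 and 0.0809. The other 3 Nrp1 probe sets were at 0.04, 0.14 and 0.44, none of them called. The highest of these rested on control replicate 1, at 8.5 against 9.7 to 10 in the other controls, and was 0.17 without it.

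Nrp2 was at 10.1, 10, 10.1, 10.2 and 10.2 in mutant arrays, against 9.1, 10, 10.2, 10.1 and 10 in control arrays. Apart from control replicate 1 the groups coincided, and the log2 fold change was 0.24 with that array and 0.04 without it (adjusted p = 0.417 and 0.692). The other 3 Nrp2 probe sets were at 0.30, 0.34 and 0.44, and at 0.23, 0.25 and 0.20 without control replicate 1. All 8 neuropilin probe sets were thus positive with every array, although none was called over all probe sets.

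Among the 9 plexins, the signalling receptors of semaphorins, Plxna2 fell and the other 8 were not called. Plxna2, a receptor of class 6 semaphorins and, with neuropilins, of class 3 semaphorins, was at 8.2, 8.1, 8.0, 8.2 and 8.2 in mutant arrays, against 8.3, 8.5, 8.5, 8.4 and 8.4 in control arrays. Every mutant array lay below every control. The log2 fold change was -0.28 (SE 0.06, adjusted p = 0.0239), with 8.14 ± 0.09 in mutants and 8.42 ± 0.08 in controls (SD, n = 5 each). The other 3 probe sets were at -0.30, -0.30 and -0.04. The call was lost without mutant replicate 2, mutant replicate 3 or control replicate 3 (adjusted p = 0.0535, 0.0586 and 0.0586).

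The remaining A-type plexins had log2 fold changes of 0.24 for Plxna4, 0.22 for the X-linked Plxna3 and -0.08 for Plxna1. Plxnb1, the Sema4d receptor, was at 0.18 (0.05 to 0.31, adjusted p = 0.0898), and its 2 probe sets gave the same value. Plxnc1, the Sema7a receptor, was at 0.22 (0.06 to 0.38, adjusted p = 0.0886). Without control replicate 1 Plxnc1 was called, at 0.26 (adjusted p = 0.0459). Plxnd1, a receptor of endothelial cells, was at 0.18 and Plxnb3, X-linked, at 0.14. Plxnb2 was at 10.5, 10.6, 10.4, 10.4 and 10.5 in mutant arrays, against 10.1, 10.5, 10.5, 10.4 and 10.4 in control arrays. Control replicate 1 was the lowest, and the log2 fold change was 0.10 (-0.08 to 0.28).

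**Figure D3:**
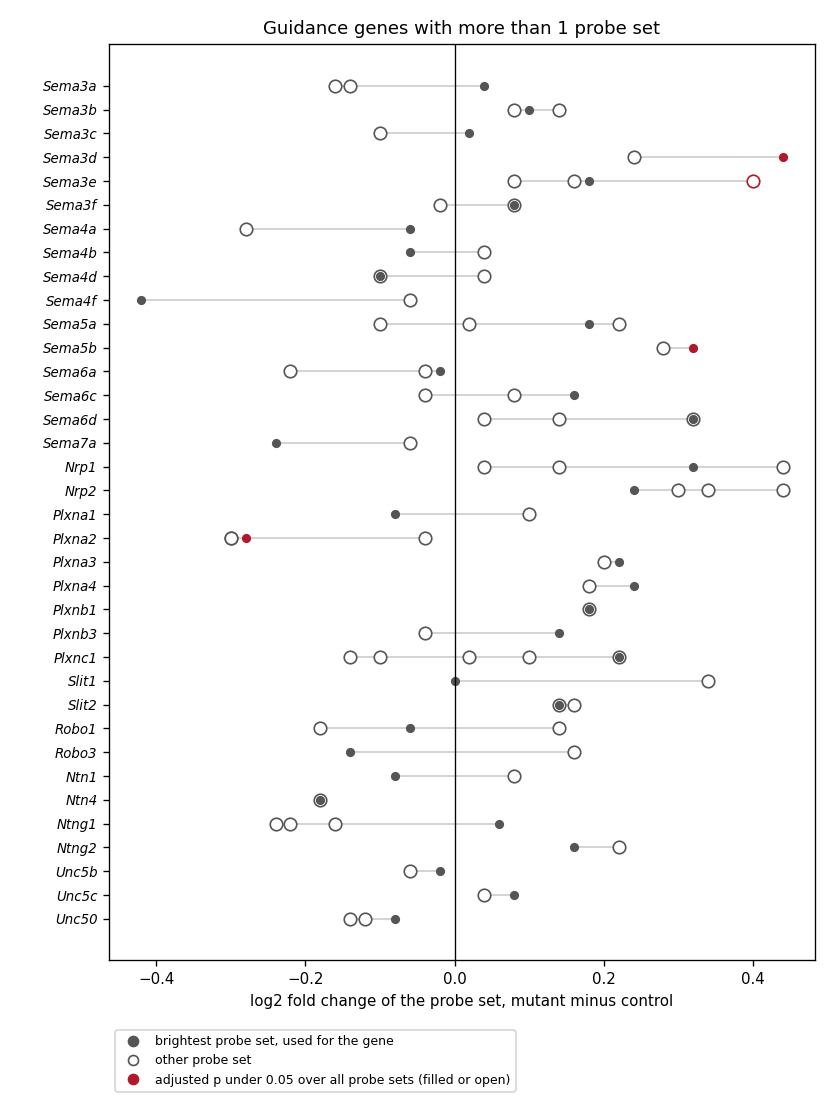
Log2 fold change of every probe set of the 36 guidance genes that have more than 1, mutant minus control. Filled points are the probe sets used for the genes, and red marks the 4 of 113 probe sets called over all probe sets on the array, those of Sema3d, Sema5b and Plxna2 and an unused one of Sema3e.

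Neither slits nor Robo receptors had a called member by limma. Slit2 was at 10.3, 9.9, 10.1, 10 and 10.1 in mutant arrays, against 9.7, 9.9, 10.3, 9.8 and 10 in control arrays, and the log2 fold change was 0.14 (-0.10 to 0.38). The groups overlapped over nearly their whole range. Slit3 was at -0.14 and Slit1 at 0.00, and none of the 3 slits had an unadjusted p under 0.05.

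Robo2, a Slit receptor known for confining outgrowth of the ureter, had the largest log2 fold change of the 50 genes, 0.58. Its values were 9.2, 9.1, 9.2, 9.1 and 9.1 in mutant arrays, against 7.7, 8.9, 8.7, 8.8 and 8.7 in control arrays. The groups did not overlap, but control replicate 1 lay 1.0 below the next control. With it the control SD was 0.49 against 0.05 in mutants, and Robo2 was not called (SE 0.19, adjusted p = 0.0775). Without it the log2 fold change was 0.37 and Robo2 was called (adjusted p = 0.00615). Only 1 probe set reports Robo2. Its direct neighbour on chromosome 16, Robo1, was at 10.2, 9.9, 10.1, 10.1 and 10.3 in mutant arrays, against 10.4, 10.1, 10, 10.2 and 10.2 in control arrays. The ranges overlapped widely, with a log2 fold change of -0.06 (-0.26 to 0.14). Robo3, which in mammals regulates the crossing of commissural axons, gave -0.14 at a low signal of 4.56 ± 0.19 in mutant and 4.70 ± 0.14 in control arrays.

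None of the 6 netrins was called by limma, and 2 of them had an unadjusted p under 0.05, against 4581 of all 18194 genes. Ntn1, the netrin best known for guiding commissural axons, was at 8.6, 8.6, 8.7, 8.8 and 8.9 in mutant arrays, against 9.0, 9.0, 8.6, 8.7 and 8.7 in control arrays, with a log2 fold change of -0.08 (-0.29 to 0.13). Ntn3 had the most negative value of the 50 genes, -0.50 (-0.91 to -0.09, adjusted p = 0.120). Mutant replicates 3 and 4 were at 5.2 and 5.7, the other mutants at 6.2 or 6.3 and the controls at 6.3 to 6.6. Ntn5 was at 0.30 (0.10 to 0.50, adjusted p = 0.0606). Ntn4, which binds laminins of basement membranes, was at -0.18, and control replicate 1 was at 7.8 for it, against 6.8 to 7.2 in the other controls. The lipid-anchored netrin G genes Ntng1 and Ntng2, whose products do not bind Dcc, were at 0.06 and 0.16. The 3 unused Ntng1 probe sets gave -0.24 to -0.16, opposite in sign to the one used.

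Of the 4 Unc5 receptors, which mediate repulsion from netrins, Unc5d rose. Its values were 7.8, 7.5, 7.7, 7.4 and 7.7 in mutant arrays, against 7.1, 7.1, 7.3, 7.5 and 7.3 in control arrays. Control replicate 4 overlapped mutant replicates 2 and 4. The log2 fold change was 0.36 (SE 0.10, adjusted p = 0.0417) on the only probe set, and the call was lost without 8 of the 10 arrays left out in turn. Unc5c was at 8.6, 8.5, 8.5, 8.5 and 8.6 in mutant arrays, against 8.4, 8.6, 8.4, 8.5 and 8.4 in control arrays. The groups overlapped, with a log2 fold change of 0.08 (-0.05 to 0.21). Unc5a was at 0.04, and Unc5b, which acts in endothelial tip cells, at -0.02.

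The 3 genes taken by name only were not called. Unc50, which encodes a Golgi membrane protein, was at -0.08, Unc5cl at 0.08 and Plxna4os1 at 0.04. The counts of called genes are the same with and without them.

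**Figure D4:**
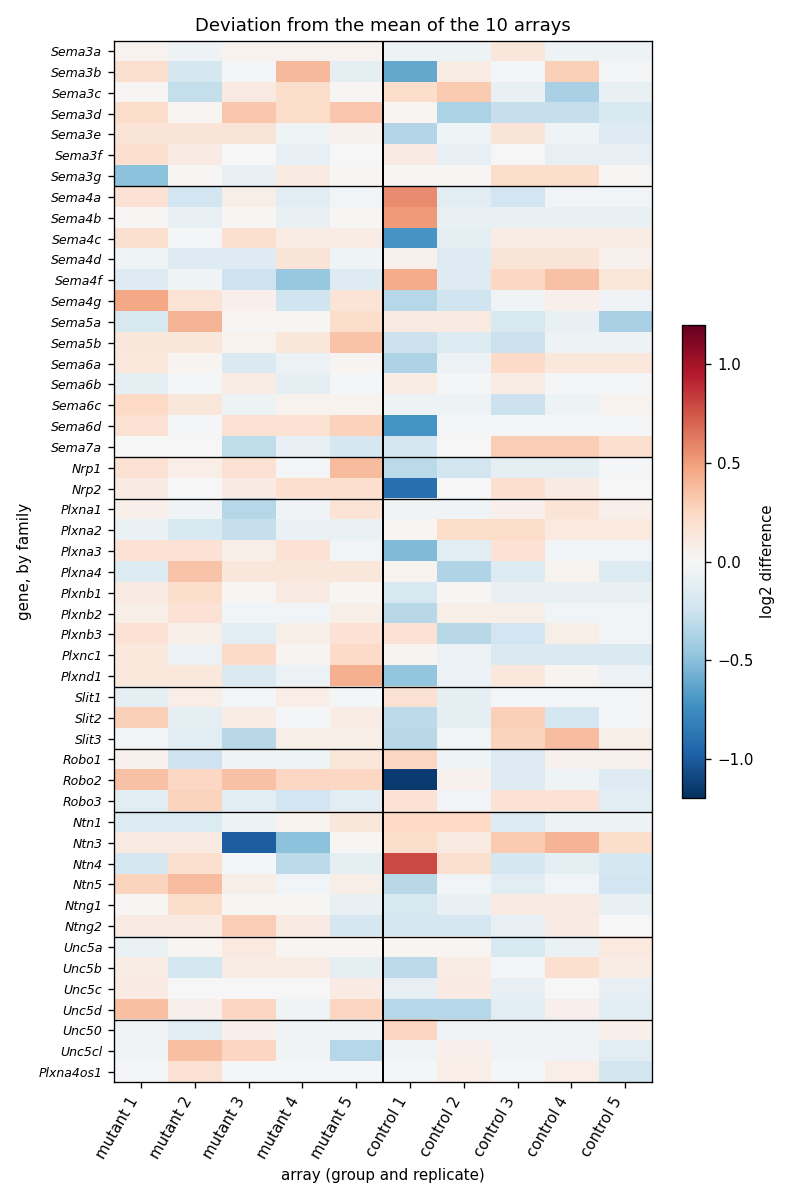
Deviation of each of the 50 guidance genes, in log2 units, from its mean over the 10 arrays, with mutant arrays left of control arrays and genes ordered by family. Control replicate 1 is far from the other controls for several genes, with Robo2, Nrp2, Sema4c and Sema6d low and Ntn4, Sema4a and Sema4b high, and Ntn3 is low in mutant replicate 3.

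Removing control replicate 1 left the number of called guidance genes at 4 higher and 2 lower, but only 3 of the 6 were the same genes: Sema3d, Sema5b and Plxna2. The called share was then 12% of the 50, against 9.88% of all genes. Robo2, Plxnc1 and Sema7a entered, while Nrp1 (0.28, adjusted p = 0.0503), Unc5d (0.32, adjusted p = 0.0663) and Sema4f (-0.36, adjusted p = 0.0602) left. The sign turned for 3 uncalled genes, Sema3b, Sema4a and Sema4b. Further uncalled genes moved by over 1.5 times toward 0: Ntn4 to -0.005, Robo1 to -0.005, Ntn1 to -0.03, Unc50 to -0.025, Ntng1 to 0.02, Plxnb2 to 0.03, Slit2 to 0.08, Plxnd1 to 0.085, and Plxna3 and Sema3e to 0.115 each. Others moved away from 0, with -0.24 for Slit3, -0.115 for Sema6a, -0.10 for Unc5b, 0.075 for Sema3c and 0.045 for Slit1, and none of these was called without that array. Sema3d was called without each of the 10 arrays in turn, and Sema5b without 9 of them.

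**Figure D5:**
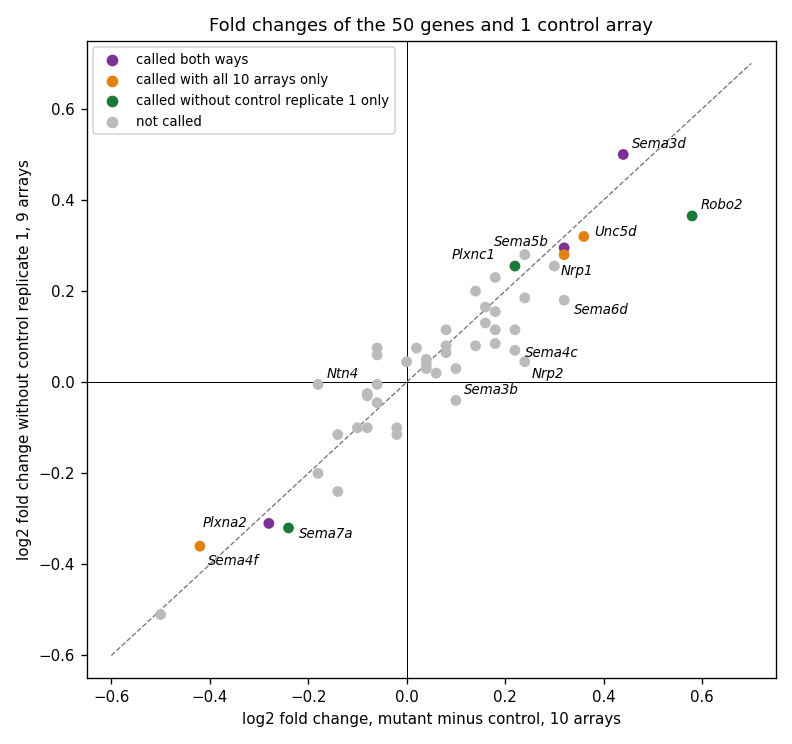
Log2 fold changes, mutant minus control, of the 50 guidance genes with all 10 arrays (horizontal axis) and without control replicate 1 (vertical axis); the dashed line marks equal values. Robo2, Nrp2, Sema6d and Sema4c lie below the line and Sema3d above it, and colours show where each gene was called.

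A list of 56 other genes of these pathways, covering co-receptors, alternative ligands and intracellular effectors, had 54 members with a gene on the array. Of these, 3 were higher, 1 was lower and 50 were not called, which is 7.41% called against 8.26% of all genes. The median log2 fold change was 0.00, as for all genes. Vegfa, the vascular growth factor that binds neuropilin 1, was at 9.4, 9.3, 9.5, 9.5 and 9.6 in mutant arrays, against 8.6, 8.7, 8.9, 9.2 and 9.1 in control arrays. The groups did not overlap, and the log2 fold change was 0.56 (SE 0.11, adjusted p = 0.0139). Kdr, the main VEGF-A receptor, was at -0.04 and not called. Its mutant arrays were at 8.6 or 8.7, against 8.0 in control replicate 1 and 8.8 to 8.9 in the other controls. Apart from control replicate 1, every control thus lay above every mutant for Kdr.

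Dcc, the attractive netrin receptor, was at 8.7, 8.4, 8.5, 8.2 and 8.5 in mutant arrays, against 7.4, 8.1, 7.9, 8.1 and 8.2 in control arrays. Mutant replicate 4 met control replicate 5 at 8.2, and the log2 fold change was 0.52 (SE 0.14, adjusted p = 0.0448). Flrt1, a relative of the Flrt proteins that bind Unc5 receptors, was at 8.8, 9.0, 9.0, 8.7 and 8.9 in mutant arrays, against 8.1, 8.5, 8.6, 8.7 and 8.4 in control arrays, and 0.42 higher (SE 0.11, adjusted p = 0.0356). The calls of Dcc and Flrt1 were each lost without 7 of the 10 arrays left out in turn. Ablim3, an actin-binding protein related to UNC-115 of axon guidance in Caenorhabditis elegans, was at 5.1, 4.2, 4.3, 5.4 and 4.7 in mutant arrays, against 5.6, 5.9, 5.8, 5.7 and 6.7 in control arrays. Every mutant array lay below every control, with a log2 fold change of -1.2 (SE 0.25, adjusted p = 0.0169).

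Of the 54 genes, 15 had an unadjusted limma p under 0.05, the 4 called ones included, against 4581 of all 18194 genes. The collapsin response mediators Dpysl2, Dpysl3, Dpysl4 and Dpysl5, which carry the class 3 signal to microtubules, were at -0.02, -0.08, -0.04 and -0.04. The Slit-Robo GTPase-activating genes Srgap1, Srgap2 and Srgap3 were at -0.06, 0.00 and 0.20. Control replicate 1 was the lowest control for each, at 8.0, 8.5 and 8.0. The other controls were at 8.7 to 8.9, 8.9 to 9.0 and 8.3 to 8.4. L1cam, an adhesion molecule that pairs with neuropilin 1, was at 0.54 (adjusted p = 0.0790), and Neo1, the relative of Dcc, was at 0.08. Gpc1, a glypican that binds slits, was at -0.22, Rgma, a ligand of Neo1, at -0.30, the receptor tyrosine kinase Met at -0.32 and the cofilin kinase Limk1 at -0.30.

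Markers of the cell types that carry or read these cues moved unequally. Each list is summarised on every array by the median deviation of its genes from their mean over the 10 arrays, so single genes can move while the median does not. Of 8 palate mesenchyme markers none was called, and their median deviation lay between -0.02 and 0.18 in mutant arrays and between -0.43 and 0.18 in control arrays, with control replicate 1 lowest. Of 10 neuron and 6 Schwann cell and glia markers none was called by limma (2 and 1 had an unadjusted p under 0.05). Intervals reached a 1.5-fold change for 7 of the neuron markers and 1 of the glial markers. The neuron median ranged from -0.49 to 0.47 in mutant and from -0.66 to 0.41 in control arrays, and the glial median from -0.14 to 0.25 in mutant and from -0.27 to 0.35 in control arrays. Of 8 endothelial markers 1, the tight junction gene Cldn5, fell by 0.54 (adjusted p = 0.0112), and the list's median lay between -0.16 and 0.09 in mutant and between -0.21 and 0.15 in control arrays. None of 8 epithelial or 8 macrophage markers was called by limma, with 3 and 2 at an unadjusted p under 0.05, which 4581 of all 18194 genes had. The 3 were Krt8 and Krt18, at 0.56 and 0.48 (adjusted p = 0.0638 and 0.0644), and Trp63, at -0.24. For Krt8 and Krt18 control replicate 1, at 11.8 and 10.9, lay among the mutants, and the other controls lay below all mutants. The epithelial median lay between -0.14 and 0.23 in mutant and between -0.23 and 0.35 in control arrays, and the macrophage median between -0.11 and 0.15 in mutant and between -0.23 and 0.26 in control arrays. Control replicate 1 was the highest control for the neuron, glial and epithelial lists and the lowest for the endothelial list. Without it the control medians ran from -0.23 to -0.05 for epithelium and from 0.005 to 0.15 for endothelium, still overlapping the mutants. They then ran from -0.655 to 0.185 for neurons, from -0.27 to 0.015 for glia and from -0.125 to 0.175 for palate mesenchyme.

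Skeletal muscle markers were the list with the most called genes. Of 8, 6 were lower, among them Myf5, Actn2 and Tnnt1, with log2 fold changes of -1.86, -1.98 and -1.74 (adjusted p = 0.00258, 0.0131 and 0.0160). The list's median deviation lay between -1.5 and 0.55 in mutant arrays and between 0.44 and 1.44 in control arrays. With this median as a covariate limma called none of the 50 guidance genes and only 1 of the 18194 genes. An unadjusted p under 0.05 was left for 4 of the 50, against 2195 of the 18194. The median itself differs with genotype and the groups overlap little on it, so this fit cannot tell the covariate and genotype apart. Sema3d, for example, kept its log2 fold change but had an adjusted p of 0.306 by limma. The lost calls therefore allow no conclusion about muscle. In that fit the log2 fold changes of Sema3d, Sema5b and Nrp1 were 0.46, 0.38 and 0.28, against 0.44, 0.32 and 0.32 without the covariate. Sema4f was at -0.67, against -0.42, while Plxna2 was at -0.17, against -0.28, Unc5d at 0.23, against 0.36, and Ablim3 at -0.14, against -1.2.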

How the data were processed

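RNA of the secondary palate was hybridised to an Affymetrix mouse array, 1 array per sample, 5 mutant and 5 control. The deposited values are log2 values that the authors made with RMA, per the submitters' processing notes, with version, filters and any batch not given in the sources used here. The platform annotation gave a single symbol to 34958 of 45101 probe sets, several to 932 and none to 9211. All columns of the table were used, and no 2 arrays were duplicates (at most 26.8% of values identical).

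Differences were fitted over all 18194 genes in R 4.3.3 with limma 3.58.1 (lmFit, eBayes), two-sided, without filter or covariate. A test on simulated data came first and recovered 39 of 50 genes changed 1.5-fold and 9 of 50 changed 1.2-fold, with 8 unchanged genes called. Its noise was drawn independently for each gene and array, without an outlying array such as control replicate 1, so these rates may not hold for the real arrays. The members, the gene lists and the alternatives were chosen with earlier results of these data known. Members with values on every array are those called, those whose groups do not overlap, the member of each family with the highest mean, the largest uncalled difference, and called co-receptors and effectors. Other single values are printed to account for every member, and Nrp2, Ntn3, the Sema3e probe set and the uncalled effectors were chosen after their values were seen. Lists were matched through Entrez IDs in a RefSeq table (GRCm38.p6).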

Additional observations from a re-analysis of the deposited data

Results flagged for a closer look

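Within each group of 5, an array was singled out when its gap to the nearest other array exceeded 0.71 of the group's range, Dixon's 95% value. Of 124 groups with more than 1 value, 13 met this, and chance gives about 1 in 20. In 7 of the 13 the array was control replicate 1. It was lowest for Sema4c (gap over range 0.75, at 7.6), Sema6d (1, at 9.4), Nrp2 (0.818, at 9.1), Plxnb2 (0.75, at 10.1) and Robo2 (0.833, at 7.7). It was highest for Sema4a (0.75, at 7.8) and Sema4b (1, at 8.7).

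Mutant replicate 2 was highest for Robo3 (0.8, at 4.9, against 4.4 to 4.5 in the other mutants). Control replicate 5 was highest for Ablim3 (0.727, at 6.7, against 5.6 to 5.9), and mutant replicate 4 was highest for the muscle gene Actn2 (0.714, at 7.8, against 5.7 to 6.3). The remaining 3 cases spanned at most 0.2, which is a step or a pair of steps of rounding: Sema3a was lowest in mutant replicate 2 (1, at 9.7) and highest in control replicate 3 (1, at 9.9), and Plxna4os1 was highest in mutant replicate 2 (1, at 3.9).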

How the results depend on the processing

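Tried in 19 alternatives were averaging the probe sets of a gene, brighter genes only, an intensity trend with robust fitting, renewed quantile normalization, centring on array medians, array weights, a covariate (Eif2s3y, or the muscle median), a replicate block, and each of the 10 arrays left out in turn. Over these, Sema3d was called in 18 (log2 fold change 0.34 to 0.50), Sema5b in 16 of the 18 that tested it (it was not among the brighter genes), Plxna2 in 12, Nrp1 in 8, Sema4f and Unc5d in 7 each and Robo2 in 3, and none of these changed sign. The count of called guidance genes, 6 as reported, was 3 with the mean of all probe sets, which is 6% against 7.64% of all genes. It was 10 with array weights (20% against 12.3% of all genes) and 0 with the muscle marker median as a covariate. With the replicate block it was 2 (4% against 2.92% of all genes), which kept Sema3d and Sema5b. Leaving out each array in turn gave 1 to 6, the lowest without control replicate 3 (2% against 4.36% of all genes). There were 2 (4%) without mutant replicate 2 or mutant replicate 3, against 4.73% and 3.53% of all genes. There were 3 (6%) without mutant replicate 1 or mutant replicate 5, against 4.65% and 4.88% of all genes. Among the co-receptors and effectors, 4 as reported, 2 (3.7%) were called with Eif2s3y as a covariate and 2 with the replicate block, against 5.72% and 2.92% of all genes. With the muscle median 0 were called. Leaving out each array gave 2 to 6, with 2 (3.7%) without mutant replicates 1, 2 or 3 or control replicate 3. The shares of all genes in those 4 fits were 4.65%, 4.73%, 3.53% and 4.36%. Over all genes, 1503 as reported, the muscle median left 1 and the replicate block 532, and leaving out single arrays gave 643 to 1798. The muscle median itself differs with genotype, so its fit cannot tell them apart, and the cause of these losses was not tested. Sema5a turned to -0.0744 with the muscle median, and Tgfbr2 to -0.0133 with the mean of all probe sets. Same-numbered arrays did not deviate together (correlations of -0.10 to 0.11, with no mutant array closest to the control of its number). With so few pairs this cannot exclude that the numbers pair the samples, and the labels do not say. Eif2s3y, a Y-linked gene, was at 9.2, 9.0, 9.3, 9.1 and 5.1 in mutant arrays, against 9.1, 3.2, 3.3, 9.0 and 3.2 in control arrays. High values were thus more frequent among mutants, so sex may be partly mixed with genotype, also for the X-linked genes. With Eif2s3y as a covariate 5 guidance genes were called (10% against 5.72% of all genes), with Robo2 added and Plxna2 and Unc5d lost. Genes near the low end of the arrays, such as Robo3 and Plxna4os1, can show little change.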
